A study of Mus musculus with 2 samples.

Results

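The genes described are 10 transcription factors that the neural crest uses during development, Sox10, Foxd3, Tfap2a, Tfap2b, Pax3, Ets1, Snai1, Snai2, Twist1 and Msx1. They were taken by gene symbol from the 28692 genes of the count tables, and all 10 were detected in both libraries. The study measured single-cell RNA in cells from the dorsal and from the ventral side of the heart base of C57Bl6 mice aged 3 days, males and females together. Dorsal pieces held the pulmonary veins, cardiac ganglia and sinoatrial node, and ventral pieces held the outflow tract base with the proximal aorta and pulmonary artery. Cells of 15 hearts were pooled by side, grown for 5 days as adherent cultures and released with trypsin before a 10x Genomics 3' library was made. Each side is therefore 1 library from 1 culture of pooled animals, with no genetic change and no lineage label in either, and descent from the neural crest was not measured.

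The neural crest is an embryonic population that leaves the dorsal neural tube and forms, among other cells, peripheral neurons, Schwann cells, satellite glia, melanocytes and much of the smooth muscle of the great arteries. Tfap2a, Pax3 and Msx1 are among its earliest regulators at the neural plate border, while Foxd3, Snai1, Snai2, Ets1, Twist1 and Sox10 act as the crest forms and leaves the neural tube. Most of these genes also have later uses outside the crest: Sox10 and Foxd3 stay on in glia, and Twist1, Snai1 and Snai2 are used widely in mesenchyme of any origin.

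Barcodes with at least 8000 unique molecular identifiers (UMIs, each tagging 1 captured RNA molecule) and at most 20% mitochondrial UMIs were kept. These were 8926 dorsal and 10649 ventral cells with 229117951 and 253103590 UMIs, a median of 22774 UMIs per cell in dorsal and 21462 in ventral cells, and 22 barcode sequences occurred in both libraries. Levels are counts per 1000000 (CPM), the UMIs of a gene for every 1000000 UMIs of the cells summed. Ratios are dorsal over ventral on the log2 scale. With 1 library per side there were no replicates and no test between sides was made. Intervals are exact 95% intervals that cover counting error only, and a gene is said to be at least 2-fold apart as a description of size. Of 7 stress genes, 3 were higher by 2-fold or more in dorsal cells, beside 12.8% of all genes counted, among them Atf3 at 64.8 CPM in dorsal against 14.2 CPM in ventral cells. The other 4, Hspa1a and Hspa1b included, stayed within 2-fold, and the part of culture stress in the results was not tested.

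Cells were sorted into classes by detection of fixed markers, none of which is among the 10 genes. A glial marker-positive cell had a UMI of at least 4 of 8 glial markers, among them Cdh19, Erbb3, Fabp7, Gfra3, Ngfr and Lgi4, and a mesenchymal marker-positive cell had a UMI of at least 6 of Col1a1, Col1a2, Col3a1, Col5a1, Pdgfra, Dcn, Lum and Fbln1 and passed no other gate. The glial class held 411 dorsal cells, 4.6% of the library (4.18 to 5.06), and 161 ventral cells, 1.51% (1.29 to 1.76). With at least 5 markers the shares were 2.9% and 1.09%. Its summed markers reached 1778 CPM in dorsal against 1581 CPM in ventral glial cells, against 14.4 and 6.07 CPM in all other dorsal and ventral cells. The mesenchymal class held 7032 dorsal cells (78.8%) and 7798 ventral cells (73.2%). Mural cells numbered 504 dorsal and 942 ventral, mesothelial cells 173 and 831, endothelial cells 102 and 146, leukocytes 196 and 145 and cardiomyocytes 86 and 47. For melanocytes, a crest derivative, 0 of 8926 dorsal and 0 of 10649 ventral cells passed the gate of at least 3 of 7 markers. This allows shares of cells past the gate of up to 0.0336% and 0.0282%. A further 64 dorsal and 14 ventral cells were 1 marker below it, and how many melanocytes the gate would miss was not tested.

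Promoters of 6 of the 10 genes were found in the RefSeq table for GRCm38.p6, and 4 of them are shown because these genes carry the main contrasts: Foxd3 was restricted to glial cells, Snai1 was the mesenchymal gene with the widest difference between sides, Twist1 was a mesenchymal gene with almost none, and Msx1 differed most in endothelial cells. Each line gives the 250 bases before the annotated start, 5′ to 3′ on the gene's strand. Capitals mark matches on either strand to CAGGTG (a Snail-type E-box, read as CACCTG on the other strand), CATCTG (a Twist-type E-box), GCCNNNGGC (AP-2) or ACAAAG (SOX). The windows lie at chr4:99656049-99656298 on the plus strand for Foxd3, chr2:167537945-167538194 on the plus strand for Snai1, chr12:33957421-33957670 on the plus strand for Twist1 and chr5:37824586-37824835 on the minus strand for Msx1.
Foxd3: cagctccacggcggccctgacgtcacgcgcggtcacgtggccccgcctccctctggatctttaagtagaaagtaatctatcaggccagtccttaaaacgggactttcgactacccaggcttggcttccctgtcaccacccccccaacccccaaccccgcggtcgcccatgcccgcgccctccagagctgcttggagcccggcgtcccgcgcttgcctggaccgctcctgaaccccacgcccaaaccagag
Snai1: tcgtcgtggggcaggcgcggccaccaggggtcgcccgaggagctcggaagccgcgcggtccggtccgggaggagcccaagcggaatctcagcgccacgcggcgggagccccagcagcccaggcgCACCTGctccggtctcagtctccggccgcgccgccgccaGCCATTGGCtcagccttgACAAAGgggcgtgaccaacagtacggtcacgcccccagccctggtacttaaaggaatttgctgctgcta
Twist1: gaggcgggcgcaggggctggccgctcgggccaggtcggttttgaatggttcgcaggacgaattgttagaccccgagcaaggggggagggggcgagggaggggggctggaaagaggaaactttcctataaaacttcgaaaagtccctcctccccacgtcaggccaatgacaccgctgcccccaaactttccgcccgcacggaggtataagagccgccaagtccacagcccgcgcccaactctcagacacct
Msx1: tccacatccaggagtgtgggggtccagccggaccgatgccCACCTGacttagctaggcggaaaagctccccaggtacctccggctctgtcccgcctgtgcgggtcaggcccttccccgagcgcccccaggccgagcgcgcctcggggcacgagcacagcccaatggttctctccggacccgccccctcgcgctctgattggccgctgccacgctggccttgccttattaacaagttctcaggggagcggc

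The Snai1 window held 3 matches that did not overlap: CACCTG ended 120 bases before the start, GCCATTGGC 78 bases before it and ACAAAG 63 bases before it. The Msx1 window held CACCTG, ending 204 bases before the start. The Foxd3 and Twist1 windows held none of the 4 motifs. Among 32851 promoter windows of the same length in the table, 17.2% held the Snail-type E-box, 14.4% the Twist-type E-box, 13.7% the AP-2 motif and 16.5% the SOX motif. GC content was 65.6% for Foxd3, 70.0% for Snai1, 62.4% for Twist1 and 68.0% for Msx1, above the median of 52.4% over all windows.

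Over all cells, 5 of the genes were higher in the dorsal library, 4 were higher in the ventral library and Twist1 lay between. Sox10, a regulator of glial identity (chr15:79154908-79165240 on GRCm38), had 6.65 CPM in dorsal against 2.64 CPM in ventral cells (log2 ratio 1.33, interval 1.20 to 1.47). Foxd3, a forkhead repressor that keeps crest progenitors undifferentiated, had 9.86 CPM in dorsal against 4.29 CPM in ventral cells (log2 ratio 1.20, interval 1.10 to 1.31). Tfap2b, an AP-2 factor (chr1:19208914-19238576), had 0.511 CPM in dorsal against 0.213 CPM in ventral cells (log2 ratio 1.26, interval 0.78 to 1.75). Tfap2a, its paralogue, was closer, with 1.41 CPM in dorsal against 0.984 CPM in ventral cells, and Pax3, a paired-box factor, had 61 dorsal and 48 ventral UMIs and a ratio whose interval spanned 0 (0.49, -0.08 to 1.07).

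Of the genes with most of their UMIs in mesenchymal cells, all but Twist1 ran the other way. Snai1, a zinc-finger repressor of epithelial genes (chr2:167538195-167542814), had 15.4 CPM in dorsal against 42.6 CPM in ventral cells, 2.76-fold higher in ventral cells and a log2 ratio of -1.46 (-1.52 to -1.41). Ets1, an ETS-domain activator used in crest and endothelium (chr9:32636221-32757820), had 31.1 CPM in dorsal against 52.2 CPM in ventral cells (log2 ratio -0.75, interval -0.79 to -0.71). Smaller ratios were found for Snai2, the Snai1 paralogue also called Slug (13.7 CPM dorsal, 17.7 CPM ventral, log2 -0.37), and for Msx1, a homeobox repressor (3.77 CPM dorsal, 4.84 CPM ventral, log2 -0.36). Twist1, a basic helix-loop-helix factor of mesenchyme, stood at 47.7 CPM in dorsal against 47.5 CPM in ventral cells, and its ratio of 0.01 ran from -0.14 to 0.10 over the scalings and filters tried.

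**Figure D1:**
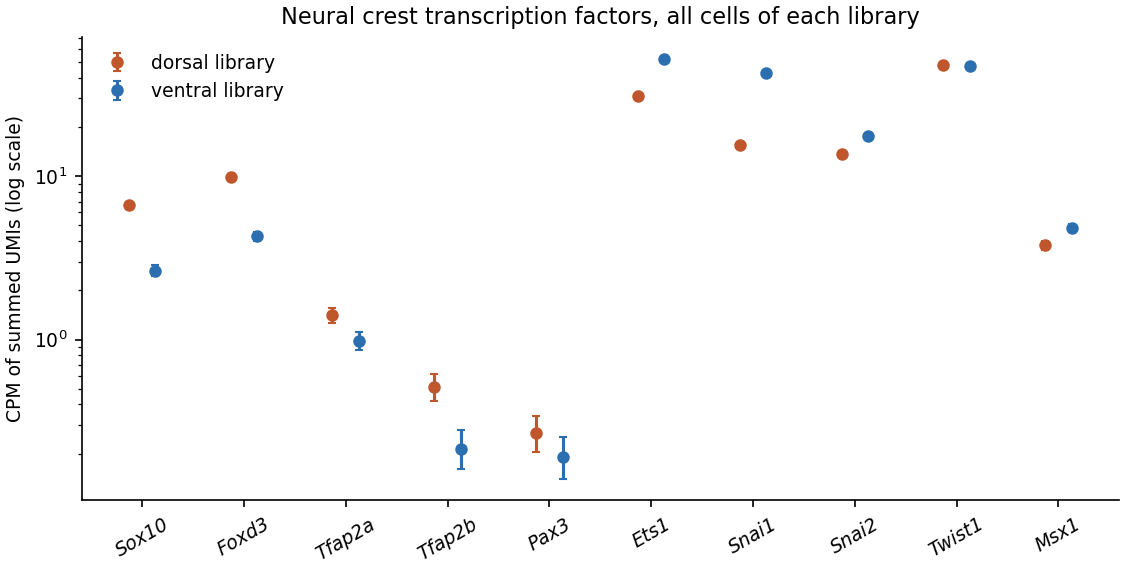
CPM of summed UMIs (log scale) of the 10 genes over all cells of each library, dorsal left of ventral, with 95% counting intervals. Sox10, Foxd3 and Tfap2b sit higher by 2-fold or more in the dorsal library, Snai1 higher by 2-fold or more in the ventral library, and the 2 Twist1 points, 47.7 and 47.5 CPM, lie side by side.

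Of the 10 genes, 3 were higher by 2-fold or more in dorsal cells, beside 12.8% of the 15719 genes with at least 50 UMIs, and 1 was higher by 2-fold or more in ventral cells, beside 6.03%. The median log2 ratio of the 10 was 0.25, against 0.12 over all these genes. With every class held at its mean share of cells over the libraries, the log2 ratio was -0.05 for Sox10 and -0.19 for Foxd3. It was -0.43 for Tfap2a and -0.52 for Pax3, so 4 of the 5 dorsal-high genes changed sign, while Tfap2b stood at 1.37. This setting equalised the number of cells and not their depth, and glial cells had a median of 13705 UMIs in dorsal against 17351 UMIs in ventral cells. Within glial cells the CPM ratios of Sox10 and Foxd3 were 0.12 and 0.01. The part of depth in the changed signs was not tested. Without glial cells, Sox10 stood at 0.93, Foxd3 at 0.70 and Tfap2a at -0.64, and 1 gene in each direction was 2-fold or more apart, beside 12.7% of genes dorsal-high and 6.26% ventral-high.

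By level and share in these classes the genes were sorted into a glial-restricted and a mesenchymal set. The first set had at least 10 times more CPM in glial than in mesenchymal cells of both libraries. The second had over 50% of its UMIs in mesenchymal cells of both libraries. Of the UMIs of all genes, mesenchymal cells held 181036806 of 229117951 dorsal and 183195460 of 253103590 ventral ones. A gene without preference for any class would thus pass the second rule, so the set name shows no preference for mesenchyme. The shares ran from 70.0% (Ets1) to 87.1% (Twist1) in dorsal and from 74.6% (Msx1) to 85.2% (Snai1) in ventral cells. Sox10 had 189 CPM in dorsal glial cells and 0.343 CPM in dorsal mesenchymal cells, and 174 and 0.218 CPM in the ventral ones. Foxd3 had 279.6 CPM in dorsal glial and 0.508 CPM in dorsal mesenchymal cells, and 277 and 0.306 CPM in the ventral ones. Glial cells thus held 86.5% of dorsal and 81.8% of ventral Sox10 UMIs, and 86.3% of dorsal and 80.3% of ventral Foxd3 UMIs. The shares depended on the gate: at 5 markers in place of 4, glial cells held 60.5% of dorsal and 60.2% of ventral Sox10 UMIs, and at 3 markers 92.4% and 91.8%.

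Most glial cells had both Sox10 and Foxd3. Of dorsal glial cells 91.7% had a Sox10 UMI and 93.7% a Foxd3 UMI, and of ventral glial cells 95.7% and 96.3%. After each cell was thinned to 8000 UMIs, 63.5% of dorsal and 62.7% of ventral glial cells had both, and 5.35% and 6.83% had neither. The thinned shares of each gene alone were 76.9% of dorsal and 76.4% of ventral glial cells for Sox10, and 81.3% and 79.5% for Foxd3. Whether the 2 genes went together among glial cells beyond these shares was not tested. Leukocytes, which should lack both genes, had a Sox10 UMI in 1.02% of dorsal and 0.690% of ventral cells, at a median depth of 39838 and 26828 UMIs against 13705 and 17351 UMIs for glial cells. Mesenchymal cells had a Sox10 UMI in 0.668% of dorsal and 0.359% of ventral cells, at 0.343 and 0.218 CPM, beside 0.236 and 0.232 CPM in leukocytes, where the counts were 2 and 1. Without thinning, so at unequal depth, Foxd3 was found in 21.3% of Sox10-positive and 0.759% of Sox10-negative dorsal mesenchymal cells. In ventral ones it was found in 17.9% and 0.193%. The source of these UMIs was not tested. There were 1.48 Foxd3 UMIs per Sox10 UMI in dorsal and 1.59 in ventral glial cells, 1.48 (1.06 to 2.08) and 1.40 (0.917 to 2.16) in mesenchymal cells, and 1.32 (0.809 to 2.18) and 1.25 (0.739 to 2.13) in near-empty barcodes of at most 100 UMIs.

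Within glial cells Sox10, Foxd3 and Tfap2a differed little between the libraries. Sox10 had a log2 ratio of 0.12 (-0.02 to 0.27), Foxd3 of 0.01 (-0.10 to 0.13) and Tfap2a, with 34.3 CPM in dorsal against 32.7 CPM in ventral glial cells, of 0.07 (-0.27 to 0.42). The sign of the last 2 changed with the processing. Over the scalings, filters and gates tried, the ratio ran from -0.09 to 0.15 for Foxd3 and from -0.03 to 0.11 for Tfap2a. Pax3 had 5.6 CPM in dorsal against 7.31 CPM in ventral glial cells, from 39 and 23 UMIs. Tfap2b was further apart on few counts, with 26 dorsal and 3 ventral UMIs, 3.73 CPM in dorsal against 0.953 CPM in ventral glial cells (log2 ratio 1.97, interval 0.26 to 4.34). Ets1, placed in the mesenchymal set by its share of UMIs, was also high in glia, at 117 CPM in dorsal against 114 CPM in ventral glial cells, 4.24-fold and 2.08-fold above mesenchymal cells of the same library. The glial cells of the sides were not alike in every gene: among the markers of the gate, Fabp7 had 10.6 CPM in dorsal against 57.5 CPM in ventral glial cells. Gfra3 ran the other way, with 8.89 CPM in dorsal against 0.953 CPM in ventral glial cells, from 62 and 3 UMIs. The log2 ratios of Lgi4, Erbb3, Ngfr and Cdh19 were 0.55, 0.49, 0.28 and 0.08.

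Of 8 members counted in glial cells, 0 were higher by 2-fold or more in dorsal cells, beside 5.03% of 9605 genes, and 1, Snai2, was higher by 2-fold or more in ventral cells, beside 2.58%. Snai2 had 13.1 CPM in dorsal against 27.3 CPM in ventral glial cells (log2 ratio -1.07, interval -1.51 to -0.62). In leukocytes its ratio was -1.44, at the lower levels of 2.47 CPM in dorsal against 6.72 CPM in ventral cells, and the part of free RNA in the glial difference was not tested. Snai1 had 4.88 CPM in dorsal against 9.21 CPM in ventral glial cells, at or below its level in leukocytes (4.95 and 12.1 CPM). Without thinning, so at unequal depth, Twist1 was found in 12 of 29 Snai1-positive (41.4%) and 8.64% of Snai1-negative dorsal glial cells. The source of these UMIs and the part of depth were not tested. Twist1 was likewise low in glia, at 10.6 CPM in dorsal against 7.63 CPM in ventral cells, beside 12.5 and 12.8 CPM in leukocytes. After thinning, 83.5% of dorsal and 76.4% of ventral glial cells had no UMI of Twist1, Snai1, Snai2 or Msx1.

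**Figure D2:**
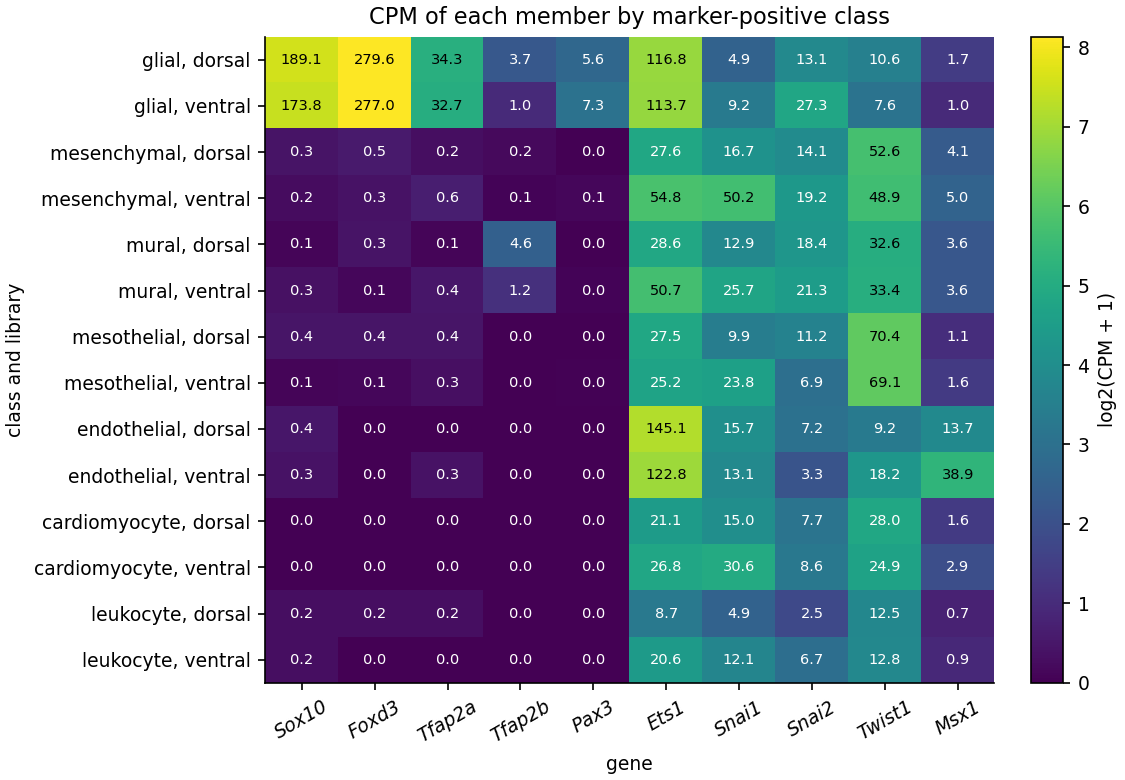
CPM of each gene (columns) in 7 marker-positive classes of each library (rows, dorsal above ventral), coloured by log2(CPM + 1) with the CPM printed in each cell. Sox10, Foxd3 and Tfap2a are high in both glial rows alone, Ets1 is highest in glial and endothelial rows, Twist1 in mesothelial and mesenchymal rows and Msx1 in the endothelial rows.

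Tfap2a was restricted to glia less tightly than Sox10 in both libraries, and Pax3 in the ventral library. In the dorsal library the glial level of Pax3 was 506-fold the mesenchymal one, from 39 and 2 UMIs, beside 552-fold for Sox10. In the ventral library it was 74.4-fold, beside 796-fold for Sox10. Glial cells held 74.2% of dorsal and 41.4% of ventral Tfap2a UMIs, and mesenchymal cells 13.0% and 43.4%. In mesenchymal cells Tfap2a had 42 dorsal and 108 ventral UMIs, 0.232 CPM in dorsal against 0.59 CPM in ventral cells (log2 ratio -1.35, interval -1.90 to -0.82), opposite in sign to its ratio over all cells. These levels were under those of near-empty barcodes, 1.08 CPM in the dorsal and 1.43 CPM in the ventral library, which rest on 4 and 10 UMIs. The count per Sox10 UMI differed between classes: there were 0.181 Tfap2a UMIs per Sox10 UMI in dorsal and 0.188 in ventral glial cells, but 0.677 (0.447 to 1.02) in dorsal and 2.70 (1.86 to 3.98) in ventral mesenchymal cells. The highest level in a mesenchymal subset was 1.35 CPM (0.771 to 2.19), in 406 ventral cells with Fmod and Scx, both tendon genes.

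Pax3 counts were few and came from few cells. Glial cells held 39 of 61 dorsal and 23 of 48 ventral UMIs. Of the other dorsal UMIs, 11 came from 1 barcode that passed the leukocyte and the cardiomyocyte gates. Mesenchymal cells had 2 dorsal and 18 ventral Pax3 UMIs, and 15 of the 18 lay in ventral cells with Gpx3 and Adamtsl2, in which the level was 0.241 CPM (0.135 to 0.398).

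Tfap2b met the rule for glial restriction by its level, but most of its UMIs lay elsewhere. Glial cells had 26 dorsal and 3 ventral UMIs, 22.2% and 5.56% of the totals of 117 and 54, while mural cells had 55 and 26 UMIs, 47.0% and 48.2%. Tfap2b is known for its part in the smooth muscle of the ductus arteriosus. In mural cells it had 4.63 CPM in dorsal against 1.20 CPM in ventral cells (log2 ratio 1.95, interval 1.25 to 2.68), and it was the 1 member of 6 counted there that was higher by 2-fold or more in dorsal cells, beside 8.69% of 11548 genes, while 0 were so in ventral cells, beside 5.82%. The level was highest in mural cells that had both the pericyte pair Rgs5 with Abcc9 or Kcnj8 and the smooth muscle myosin Myh11. This split was chosen after the values were seen. There were 41 UMIs in 25 of 84 dorsal cells with both, 22.3 CPM (16.0 to 30.3), and 12 UMIs in 9 of 108 ventral cells, 4.93 CPM (2.55 to 8.61). The UMIs gathered there in the dorsal library only. In the ventral library 13 UMIs lay in 548 cells with Myh11 and without that pair, at 1.10 CPM (0.585 to 1.88). No Tfap2b UMI was seen in endothelial cells, leukocytes, mesothelial cells or cardiomyocytes of either library.

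In mesenchymal cells, Snai1 and Ets1 were lower in the dorsal library while Twist1 was level. Snai1 had 16.7 CPM in dorsal against 50.2 CPM in ventral mesenchymal cells, 3.00-fold higher in ventral cells and a log2 ratio of -1.58 (-1.64 to -1.52). Ets1 had 27.6 CPM in dorsal against 54.8 CPM in ventral mesenchymal cells (log2 ratio -0.99, interval -1.04 to -0.94), just inside the 2-fold limit and outside it, at -1.10, with TMM scaling. Snai2 had 14.1 CPM in dorsal against 19.2 CPM in ventral cells (log2 -0.45), and Msx1 4.07 and 5.00 CPM (log2 -0.30). For Twist1 the values were 52.6 CPM in dorsal against 48.9 CPM in ventral cells, with a log2 ratio of 0.10 that ran from -0.01 to 0.19 over the scalings and filters. Of 8 members counted, 0 were higher by 2-fold or more in dorsal mesenchymal cells, beside 11.7% of 14738 genes, and 2, Snai1 and Tfap2a, were higher by 2-fold or more in ventral ones, beside 6.51%. With each cell at equal weight the counts were 2 and 2, beside 12.2% and 6.45%. The 2 dorsal-high ones were then Sox10 (log2 1.36) and Foxd3 (log2 1.54). Both rest on few UMIs in mesenchymal cells, 62 dorsal and 40 ventral for Sox10 and 92 and 56 for Foxd3. From summed UMIs their log2 ratios were 0.65 (0.05 to 1.26) and 0.73 (0.24 to 1.24).

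**Figure D3:**
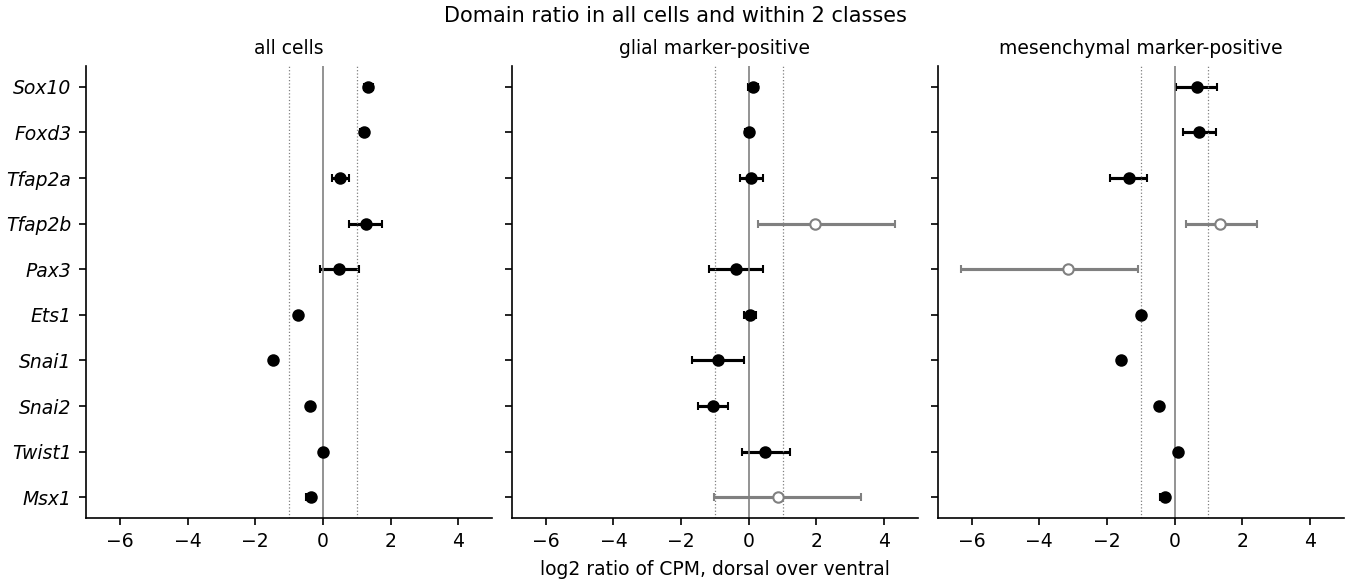
Log2 ratio of CPM, dorsal over ventral, of each gene in all cells and within glial and mesenchymal marker-positive cells, with 95% counting intervals, grey open points for genes under 50 UMIs in that class and dotted lines at 2-fold. Sox10 and Foxd3 lie at 1.33 and 1.20 in all cells but at 0.12 and 0.01 within glial cells, while Snai1 lies at -1.46 in all cells and -1.58 within mesenchymal cells.

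The Snai1 difference was also seen in cells rather than only in sums. Of mesenchymal cells 27.7% dorsal and 57.1% ventral had a Snai1 UMI, and 11.4% and 30.1% after thinning. In leukocytes the shares were 15.3% of dorsal and 20.7% of ventral cells, and 2.04% and 8.97% after thinning, and the log2 ratio of CPM was -1.29, so they showed the same direction at lower levels (4.95 CPM in dorsal against 12.1 CPM in ventral leukocytes). Snai1 also made up more of the near-empty barcodes of the ventral library, at 16.5 CPM in dorsal against 49.1 CPM in ventral ones. Its ratio was below 0 in mesothelial cells (9.9 CPM dorsal, 23.8 CPM ventral, log2 -1.26) and mural cells (12.9 CPM dorsal, 25.7 CPM ventral, log2 -0.995), all of these below the near-empty level, and the part of free RNA in them was not tested. In mesothelial cells Snai1 was the 1 of 4 members counted that was higher by 2-fold or more in ventral cells, beside 6.87% of 11503 genes, and 0 were so in dorsal cells, beside 5.42%. Endothelial cells did not share the difference, with 15.7 CPM in dorsal against 13.1 CPM in ventral cells and a log2 ratio of 0.26 (-0.40 to 0.92).

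Marker pairs divided the mesenchymal cells further, and the mesenchymal genes did not follow the same subsets. Snai1 reached 68.7 CPM in ventral cells with Gpx3 and Adamtsl2 and 64.1 CPM in ventral cells with Map2 and Tbx20, and ran from 12.7 to 24.2 CPM over the dorsal subsets. The same pair Gpx3 and Adamtsl2 in the dorsal library had 22.4 CPM of Snai1, so the difference between sides held within a matched pair (912 dorsal and 2544 ventral cells). It also held in cells with Cd200 and Cxcl12, at 16.7 CPM in dorsal against 39.3 CPM in ventral cells, and in cells with the division genes Top2a and Ube2c, at 24.2 and 44.9 CPM.

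Ets1 varied more within a library than between them. Among dorsal subsets it ran from 11.6 CPM in 60 cells with Grem1 and Nkx6-1 to 59.1 CPM in cells with Sele and Cxcl5, and among ventral subsets from 25.6 CPM in cells with Fmod and Scx to 76.2 CPM in cells with Gpx3 and Adamtsl2. Twist1 took another order. It was highest at 73.5 CPM in dorsal cells with Gdf10 and Barx1 and at 75.2 CPM in ventral cells with Fmod and Scx, and lowest at 37.0 CPM in dorsal against 36.9 CPM in ventral cells with Gpx3 and Adamtsl2. The subset highest in Snai1 and Ets1 in the ventral library was thus the lowest in Twist1. Msx1 was highest in ventral cells with Fmod and Scx (8.76 CPM, 7.16 to 10.6), which were also the highest in Snai2 (25.9 CPM, 23.1 to 29.0).

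**Figure D4:**
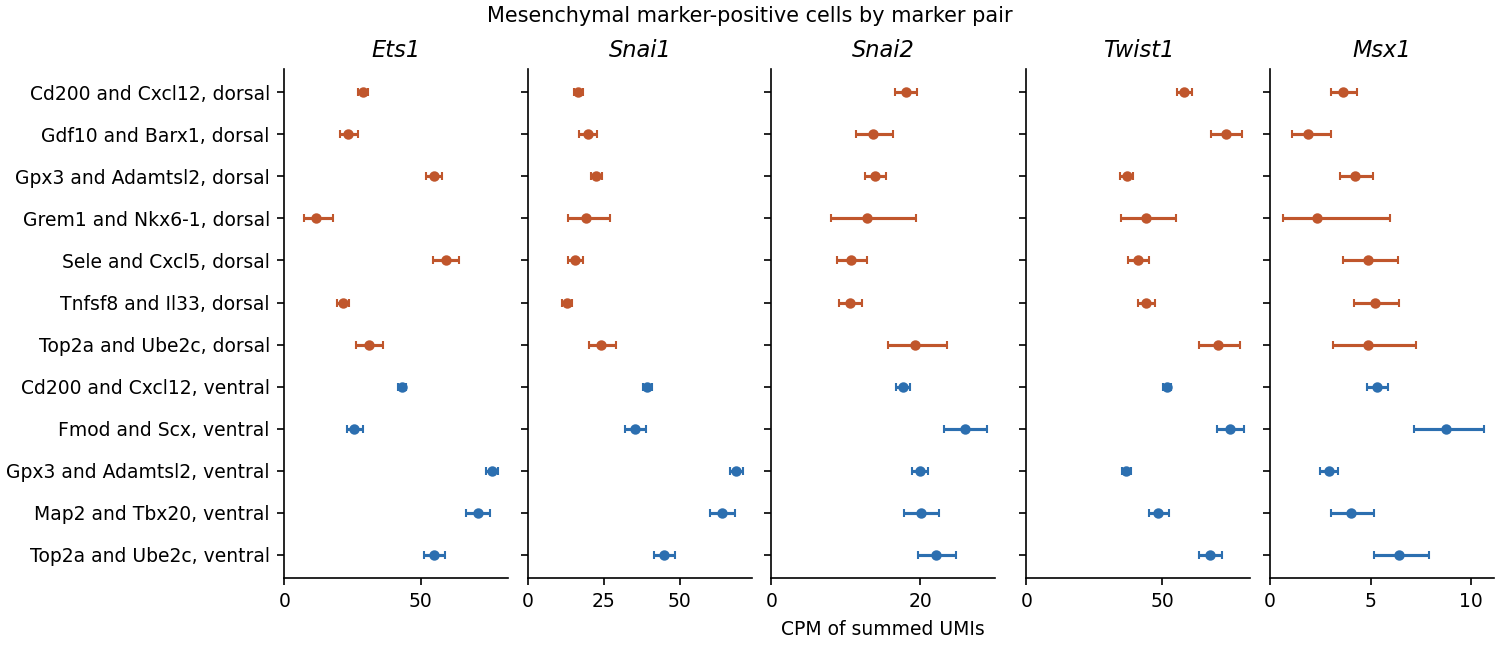
CPM of the 5 mesenchymal genes in mesenchymal cells with at least 2 UMIs of each gene of a marker pair (subsets of at least 50 cells, dorsal above ventral), with 95% counting intervals. Every ventral Snai1 point, from 35.2 to 68.7 CPM, lies right of every dorsal one, from 12.7 to 24.2 CPM, while the Twist1 points of the sides overlap.

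In single mesenchymal cells Snai1 was found about as often with as without Twist1. After thinning, a Snai1 UMI was seen in 11.2% of dorsal Twist1-positive and 11.5% of dorsal Twist1-negative cells, and in 29.3% and 30.5% of the ventral ones. Ets1 and Snai1 went together somewhat in ventral cells, with Ets1 in 38.0% of Snai1-positive (36.05 to 40.01) and 31.3% of Snai1-negative cells (30.1 to 32.5), whereas in dorsal cells the shares were 19.8% (17.1 to 22.8) and 18.5% (17.6 to 19.5). None of Twist1, Snai1, Snai2 and Msx1 was detected after thinning in 52.0% of dorsal and 40.1% of ventral mesenchymal cells.

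Msx1 had its highest level in endothelial cells of both libraries. Ets1 did so in the dorsal library, while in the ventral library its endothelial and glial intervals overlapped. Msx1 is used by endocardium and its cushion derivatives as well as by crest. It had 13.7 CPM in dorsal against 38.9 CPM in ventral endothelial cells, 34 and 128 UMIs (log2 ratio -1.51, interval -2.10 to -0.95), and a UMI was present in 21.6% of dorsal and 41.8% of ventral cells, beside 3.06% and 2.07% of leukocytes. It was the 1 member of 4 counted in this class that was higher by 2-fold or more in ventral cells, beside 3.94% of 8484 genes, and 0 were so in dorsal cells, beside 6.08%. Ets1 had 145 CPM in dorsal against 123 CPM in ventral endothelial cells. Twist1, at 9.24 CPM in dorsal against 18.2 CPM in ventral endothelial cells, had intervals that overlapped those of leukocytes (12.5 CPM dorsal, 12.8 CPM ventral). Twist1 was instead high in mesothelial cells, at 70.4 CPM in dorsal against 69.1 CPM in ventral ones.

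Ordered by level among the 7 classes shown, mesothelial cells came first for Twist1 and mesenchymal cells second in each library, with intervals that did not overlap. For Ets1 in the dorsal library, endothelial cells (145 CPM, 131 to 161) lay above glial cells (117 CPM, 109 to 125), while in the ventral library their intervals overlapped (111 to 135 CPM in endothelial and 102 to 126 CPM in glial cells). For Snai2 in the dorsal library, mural cells (18.4 CPM, 16.0 to 20.9) lay above mesenchymal cells (14.1 CPM, 13.5 to 14.6), whose level did not differ from that of glial cells (13.1 CPM, 10.5 to 16.0) beyond counting error.

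Genes with the most similar pattern were sought over 19 groups, each a class in 1 library, by Pearson's r of log2(CPM + 1), with class markers left out. This is a description over groups that share libraries and depth. Sox10 was most like Sox2 (r = 0.996), Gldn (0.991) and Fgf5 (0.990), and Foxd3 was most like Fgf5 (0.994), Sox2 (0.991) and Sox10 (0.989). Sox2 is a stem cell and glial progenitor factor and Gldn encodes gliomedin, a Schwann cell protein of the node of Ranvier. Tfap2a was most like Sema4f (0.981), and Pax3 most like Sostdc1 (0.951). Tfap2b had no close match, the highest being Astn2 at 0.843. Snai1 was most like Spry1 (0.876), an inhibitor of receptor tyrosine kinase signalling that had 62.9 CPM in dorsal against 129 CPM in ventral cells, and F2r (0.868), the thrombin receptor. Twist1 was most like Gpc3 (0.953), Msx1 most like Tspan6 (0.946), Ets1 most like Rhoc (0.940) and Snai2 most like Il17rc (0.844).

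Related regulators were read from a list of 28 crest and paralogous transcription factors, of which 25 had at least 50 UMIs. In this list 8 were higher by 2-fold or more in dorsal and 3 in ventral cells, with a median log2 ratio of 0.06, beside the 12.8%, 6.03% and 0.12 over all genes given above. Among the widest ratios were those of Egr2, a factor of Schwann cell myelination (29.6 CPM dorsal, 3.92 CPM ventral, log2 2.92), Foxd1 (2.83 CPM dorsal, 0.526 CPM ventral, log2 2.43) and Ets2 (59.4 CPM dorsal, 13.2 CPM ventral, log2 2.17). Glial cells held 2.44% of dorsal Egr2 UMIs, and in mesenchymal cells Egr2 had 32.5 CPM in dorsal against 4.05 CPM in ventral cells (log2 3.00). The 3 ventral-high genes were Mycn (log2 -2.01), Hand2 (12.9 CPM dorsal, 42.4 CPM ventral, log2 -1.72) and Pou3f1 (log2 -1.19). Twist2, the paralogue of Twist1, had 28.3 CPM in dorsal against 24.2 CPM in ventral cells. Ets2 was higher in dorsal cells, whereas its relative Ets1 was lower.

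Of 14 surface receptors of the crest, 7 were higher by 2-fold or more in dorsal and 2 in ventral cells, beside 12.8% and 6.03% of all genes, with a median log2 ratio of 0.97. Gfra3, a co-receptor for artemin, had 67 dorsal and 6 ventral UMIs (log2 3.63), and Ednrb, the endothelin receptor needed for enteric crest, had 20.7 CPM in dorsal against 5.07 CPM in ventral cells (log2 2.03). Itga4, an integrin subunit, had 4.87 CPM in dorsal against 22.6 CPM in ventral cells (log2 -2.22). Among the 7, Ngfr, Erbb3 and Gfra3 are markers of the glial gate, and glial cells held 84.7%, 81.0% and 92.5% of their dorsal UMIs. For the others the glial share of dorsal UMIs was 49.8% for Gfra1, 14.9% for Ednrb, 0.682% for Ednra and 0.696% for Pdgfra. Of 12 genes that depend on Sox10 in glia or are markers of it, 6 were higher by 2-fold or more in dorsal and 0 in ventral cells, beside 12.8% and 6.03% of all genes, with a median log2 ratio of 1.12. Several of the list, among them Erbb3, Ngfr, Cdh19 and Fabp7, are also markers of the glial gate, and Erbb3 and Ngfr were already counted as receptors. The 6 included Erbb3, a neuregulin receptor (log2 1.77), and Gjc3, a glial connexin (log2 1.69), for which glial cells held 81.0% and 85.3% of dorsal UMIs. The widest was Mia (2.89 CPM dorsal, 0.356 CPM ventral), also a cartilage gene, and glial cells held 0.151% of its dorsal UMIs.

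Of 15 genes of epithelial to mesenchymal transition, 3 were higher by 2-fold or more in dorsal and 0 in ventral cells, beside 12.8% and 6.03% of all genes, with a median log2 ratio of 0.35. The 3 were the epithelial genes Cdh1 (0.402 CPM dorsal, 0.0672 CPM ventral, log2 2.58), Cldn4 (0.834 CPM dorsal, 0.379 CPM ventral, log2 1.14) and Epcam (1.22 CPM dorsal, 0.581 CPM ventral, log2 1.07). Cdh1 encodes E-cadherin and was rare in both libraries, with 92 dorsal and 17 ventral UMIs. The mesenchymal genes of the list stayed within 2-fold, among them Vim (1899 CPM dorsal, 2864 CPM ventral) and Fn1 (1178 CPM dorsal, 1519 CPM ventral).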

How the data were processed

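Each library's deposited table gives unnormalised UMI counts of 28692 genes in 6794880 barcodes, most of them empty, made with Cell Ranger 3.0.2 on mm10 per the submitters' processing notes. Its alignment settings and annotation were not given in the sources used here. In all, there were 246920028 UMIs in the dorsal and 264822916 in the ventral table, and the kept cells held 92.8% and 95.6% of them. Gene positions are from GENCODE M21 on GRCm38 and promoters from RefSeq.

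Counts were summed per library and class and given as CPM, with exact Poisson intervals for levels, exact conditional binomial intervals for ratios and Clopper-Pearson intervals for shares, using Python 3.11.15, numpy 2.4.6, scipy 1.17.1 and pandas 2.3.3, with TMM factors from edgeR 4.0.16 in R 4.3.3. The code was checked on simulated data. Classes came from counts of detected markers; a barcode past 1 gate other than the mesenchymal one took that class, and one past several was set aside as mixed (81 dorsal, 41 ventral). No doublet caller was run, and a limit of 50000 UMIs was tried instead. The depth per cell after thinning was 8000 UMIs, which every kept cell reached. All 10 genes are named, with the 3 most similar genes per member sought, some of which are printed, and up to 4 genes of widest ratio per further list, beside others named with their values. The genes and lists were chosen with earlier results of these data known. Some marker and list genes are not reported here.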

Additional observations from a re-analysis of the deposited data

Results flagged for a closer look

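For 3 genes the ratio between sides pointed one way in 1 class and the other way in another, each with an interval that left out 0, and no test of the difference was possible with 1 library per side. Ets1 had a log2 ratio of 0.24 in endothelial cells and -1.24 in leukocytes, 1.48 apart. Snai2 had a log2 ratio of 0.70 in mesothelial cells and -1.44 in leukocytes, 2.14 apart. Leukocytes were the lowest class for both genes but not the only one below 0. Mesenchymal cells had -0.99 (-1.04 to -0.94) for Ets1 and -0.45 (-0.52 to -0.37) for Snai2. In leukocytes both genes lay below the level of near-empty barcodes (8.72 CPM in dorsal against 20.6 CPM in ventral leukocytes against 32.5 and 51.4 CPM in dorsal against ventral near-empty barcodes for Ets1), and the part of free RNA was not tested. Twist1 had a log2 ratio of 0.10 in mesenchymal and -0.98 in endothelial cells, 1.09 apart, but its mesenchymal ratio was -0.01 with median-of-ratios scaling, and its endothelial value rests on 23 dorsal and 60 ventral UMIs.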

How the results depend on the processing

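No paired analysis was possible because each side had 1 library. Over all cells, 4 genes were at least 2-fold apart (12.8% of all genes dorsal-high and 6.03% ventral-high). The number was 2 with every class at its mean share (11.5% and 5.9%) and 2 without glial cells (12.7% and 6.26%). It was 1 among genes at 20 CPM or more, where 3 members were counted (4.69% and 5.12%), and 3 with a minimum of 12000 UMIs (12.7% and 6.12%). With every class at its mean share of cells, which left depth per cell unequal, the sign turned for Sox10 (-0.05), Foxd3 (-0.19), Tfap2a (-0.43) and Pax3 (-0.52). Without glial cells it turned for Tfap2a (-0.64). In mesenchymal cells the number was 2 (11.7% and 6.51%). It was 4 with each cell at equal weight (12.2% and 6.45%) or with no minimum of UMIs per gene (14.5% and 6.94%). The glial share of dorsal cells was 4.6%, and 2.9% with a gate of at least 5 markers and 3.31% with a minimum of 12000 UMIs; that of ventral cells was 1.51%, and 1.09% with at least 5 markers. It stayed higher in dorsal cells at each of these settings. TMM scaling moved every log2 ratio by -0.12 in all cells, -0.11 in mesenchymal and -0.09 in glial cells, and Twist1 then stood at -0.11 in all cells, and at -0.14 with median-of-ratios scaling. Snai1 stayed between -1.61 and -1.45 over all cells and between -1.70 and -1.57 in mesenchymal cells, and Tfap2b between 1.01 and 1.37 over all cells. Of single ratios recomputed, 29 of 89 over all cells, beside the 2 of Sox10 and Foxd3, 13 of 94 in mesenchymal and 1 of 70 in glial cells moved beyond their counting interval, and the sign changes named here are among them. Counting error is the only error measured, and Pax3 and, outside mural cells, Tfap2b rest on few UMIs.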

Other observations

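A few barcodes passed the glial gate together with another. There were 10 dorsal and 5 ventral barcodes past the glial and mural gates, with 22 and 4 Sox10 UMIs and a median of 43924 and 41711 UMIs. A further 2 dorsal barcodes passed the glial and neuron gates, with 8 Sox10 and 9 Foxd3 UMIs. Barcodes that passed no gate numbered 306 dorsal and 537 ventral, and they held 86 and 55 Sox10 UMIs and 113 and 101 Foxd3 UMIs.

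Twist1 and Snai1 UMIs were spread over many cells, with 1.24% of dorsal and 0.933% of ventral Twist1 UMIs in the 10 highest cells. Tfap2b was concentrated, with 28.2% of dorsal and 48.1% of ventral UMIs in the 10 highest cells, and so was Pax3, with 44.3% and 43.8%.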
